A study of Mus musculus with 12 samples.

Results

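The comparison described here set 4 miRNA arrays of mouse osteoclast precursor cultures at day 3 against 4 arrays at day 1, and so used 8 of the 12 arrays of the series, chosen by the day in their labels. Marrow cells came from male C57BL/6 mice aged 6 to 8 weeks and had been depleted of cells bearing CD45R (B220) or CD3, the surface proteins of B and T lymphocytes. The cultures of both days received RANKL and M-CSF, at 30 ng/ml for either factor, from the start, so that the day 1 arrays are not untreated cells, and no culture without RANKL was analysed here. Time in culture and exposure to RANKL therefore cannot be told apart. Red cells had been lysed with an ammonium chloride buffer per the study's methods, no step removing the other non-lymphoid marrow cells is stated there, and in bulk RNA fewer cells of a type and less of a miRNA per cell cannot be told apart. The study's methods state that the 4 arrays of a day came from independent cultures. The 4 day 3 arrays lay on a slide of their own with a scan of their own, whereas days 1 and 5 shared the other slide. A difference between day 3 and day 1 and a difference between the slides cannot be told apart. For this reason the day 5 minus day 1 value, measured within a slide, is given beside some of the main results. The results printed without it have no value within a slide beside them. That value shares the day 1 arrays and is not independent of them.

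Osteoclasts are multinucleated cells that resorb bone, and they form by fusion of precursors of the monocyte lineage. M-CSF keeps the precursors alive and dividing, and RANKL, through its receptor RANK and the adaptor TRAF6, activates NF-κB, AP-1 and NFATc1, which switch on the genes of the osteoclast. A miRNA is a short RNA, cut from one or both strands of a hairpin, that lowers the output of mRNAs pairing with its seed (bases 2 to 8 from the 5′ end). miRNAs with the same seed form a family, and miRNAs from neighbouring hairpins are often cut from a common primary transcript. In the names of the array an asterisk marks the strand of the hairpin that was held to be the minor one.

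The following mature sequences carry the main results. They are given 5′ to 3′ from RefSeq (GRCm38.p6) with the seed in capitals, under the names on the array. The first set holds miRNAs that were detected on no day 1 array and on all 4 day 3 arrays. miR-182, miR-96 and miR-183 come from neighbouring hairpins, miR-455 and miR-455* from opposite strands of a hairpin, and miR-489 from a hairpin inside the calcitonin receptor gene.
miR-182: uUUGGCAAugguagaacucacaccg
miR-96: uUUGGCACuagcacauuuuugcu
miR-183: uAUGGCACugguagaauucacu
miR-455: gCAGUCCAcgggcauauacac
miR-455*: uAUGUGCCuuuggacuacaucg
miR-489: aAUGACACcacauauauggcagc

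The second set shows related miRNAs that rose, with the shared seed of miR-99a, miR-99b and miR-100, the seed of miR-125a-5p and miR-125b-5p, and the seed of miR-193 and miR-193b beside that of miR-365, a genomic neighbour of miR-193b.
miR-99a: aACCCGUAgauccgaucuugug
miR-99b: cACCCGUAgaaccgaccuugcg
miR-100: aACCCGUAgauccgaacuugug
miR-125b-5p: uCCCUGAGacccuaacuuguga
miR-125a-5p: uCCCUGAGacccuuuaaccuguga
miR-193: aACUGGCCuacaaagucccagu
miR-193b: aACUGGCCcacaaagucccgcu
miR-365: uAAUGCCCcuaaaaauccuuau

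The third set holds miRNAs that fell, with miR-451 as the largest fall among miRNAs detected on all 8 arrays, miR-126-3p as a marker of other marrow cells, miR-155 as a miRNA of activated macrophages, and 3 guanine-rich miRNAs.
miR-451: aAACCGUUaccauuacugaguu
miR-126-3p: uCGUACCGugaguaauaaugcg
miR-155: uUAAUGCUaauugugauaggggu
miR-188-5p: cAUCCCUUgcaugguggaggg
miR-671-5p: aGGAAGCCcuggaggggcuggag
miR-1894-3p: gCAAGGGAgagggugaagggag

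The last set shows miRNAs that share a seed and moved in opposite directions.
miR-132: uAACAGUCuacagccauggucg
miR-212-3p: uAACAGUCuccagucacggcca
miR-181a: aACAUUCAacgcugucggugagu
miR-181b: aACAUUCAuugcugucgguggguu
miR-181c: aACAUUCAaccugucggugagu

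Levels are the total signal of a miRNA, a linear intensity summed over its probes, after quantile normalization over the 334 miRNAs detected on at least 1 of the 12 arrays, a floor of 1 and conversion to log2, so that 0 is the floor. Quantile normalization gives each array the same set of values, and all changes are therefore relative to the other miRNAs of the array. The arrays of a day correlated at 0.984 to 0.995 at day 1 and at 0.987 to 0.996 at day 3 (Pearson's r over the 173 miRNAs detected on all 8 arrays), and pairs across the days at 0.876 to 0.907. Between 233 and 276 miRNAs were detected on the day 1 arrays and between 211 and 226 on the day 3 arrays (exact two-sided permutation test, p = 0.0286, the smallest p that 4 arrays against 4 allow). Before normalization the summed signal of all miRNAs at day 3 was 58.6% of that at day 1, and 2 control features that carry no mouse miRNA stood at 77.6% and 74.7%. At day 5, on the slide of day 1, the summed signal was 80.7% of that at day 1.

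Of the 334 miRNAs tested, 175 (52.4%) differed between day 3 and day 1 at a Benjamini-Hochberg adjusted p under 0.01 in limma, 91 of them higher (27.2%) and 84 lower (25.1%). A difference of more than 2-fold beside that threshold was met by 52 higher miRNAs (15.6%) and 65 lower miRNAs (19.5%), together 117 or 35% of those tested. The lowest and highest arrays of both days did not overlap for 199 miRNAs (59.6%). The median difference over all 334 was 0.18 on the log2 scale. Scaling to the control features in place of quantile normalization moved that median to -0.41, with 29 higher and 75 lower, and no normalization moved it to -0.77, with 24 higher and 93 lower, so that the share of higher among the miRNAs changed by more than 2-fold went from 44.4% to 27.9% and 20.5%. Both scalings moved the median down, and a difference below 0 in one of them is given below with its distance from that setting's median. The shift was not the same for every miRNA. For example, miR-150 went up, from -3.02 to -2.45 with the control features and -2.81 without normalization. The shares of 27.2% higher and 25.1% lower over all miRNAs are the background for the counts of list members.

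**Figure D1:**
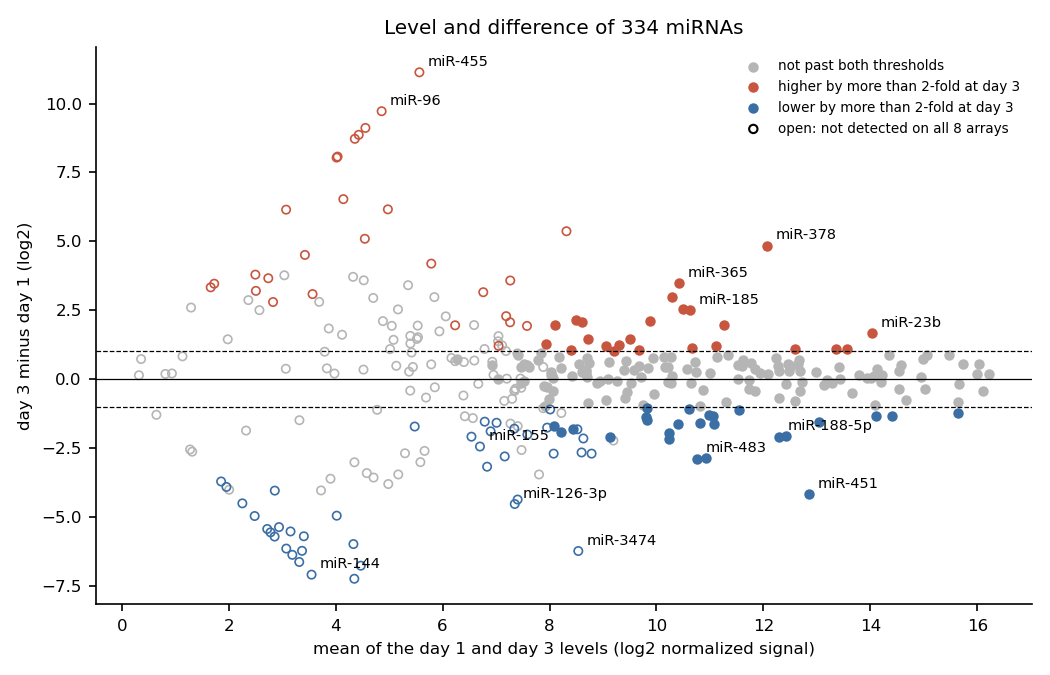
Each point is 1 of the 334 miRNAs, with the mean of its day 1 and day 3 levels on the horizontal axis and the day 3 minus day 1 difference on the vertical axis, both in log2 normalized signal. Red and blue points are the 52 higher and 65 lower miRNAs past both thresholds, dashed lines mark the 2-fold limit, and open points, which hold the differences of largest size, were not detected on all 8 arrays.

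The miRNAs that differed by more than 2-fold were of different kinds by detection. Of the 52 higher, 24 were detected on all 8 arrays, 11 on no day 1 array and all 4 day 3 arrays, and 6 on some day 1 arrays and all 4 day 3 arrays. A further 8 were detected on no array of either day, and no fold is given for them. The other 3 were miR-429, miR-152 and miR-29a*, detected on no or some arrays of each day. Of the 65 lower, 25 were detected on all 8 arrays, 17 on all 4 day 1 arrays and no day 3 array, 16 on some day 1 arrays and no day 3 array, and 7 on all 4 day 1 arrays and some day 3 arrays. Just inside the 2-fold limit lay miR-484 (log2 difference 1.04) and miR-1187 (-1.06), and just outside it miR-466b-3p (0.93) and miR-181a (-0.96).

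Of the miRNAs higher at day 3, 11 were detected on no day 1 array and on all 4 day 3 arrays. They were miR-455, miR-96, miR-182, miR-489, miR-183, miR-200b, miR-455*, miR-34b-5p, miR-34c, miR-193b and miR-1983. Since day 1 gives only a limit for them, each change is a bound, the day 3 mean over the day 1 limit of detection. These bounds, and those given below for falls, hold for the quantile-normalized values with their floor and not under every alternative of the processing. Among the alternatives the smallest log2 difference was 3.62 for miR-455, 2.28 for miR-96 and 1.63 for miR-182. It was 1.57 for miR-183 and 2.07 for miR-489. On 3 of the 4 day 1 arrays the dimmest miRNA marked as detected sat at the floor, so that a bound by that signal rests on the floor, and the 5th percentile of the detected signals, between 5.59 and 6.78 on the log2 scale at day 1, was used beside it.

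miR-455 had levels of 10.90, 11.19, 11.19 and 11.25 on the 4 day 3 arrays and lay at the floor on all day 1 arrays. It was at least 31.9-fold higher by the 5th percentile limit and at least 1713-fold higher by the dimmest detected signal, a limit that rests on the floor. The limma test (Benjamini-Hochberg adjusted p = 3.69e-15) measured the distance from the floor, without spread at day 1, and not these folds. Its partner strand miR-455* read 8.06, 8.14, 8.14 and 7.96 at day 3 and was likewise at the floor at day 1, at least 3.83-fold higher by the 5th percentile limit. Both strands of the hairpin, which lies inside the collagen gene Col27a1 (GRCm38.p6 chr4:63256904-63256924 for miR-455, plus strand), thus passed from no detection to detection on every array. At day 5 the level of miR-455 was lower than at day 3 (difference -0.52 ± 0.09 on the log2 scale, with SE; limma, Benjamini-Hochberg adjusted p = 0.00155).

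miR-183, miR-96 and miR-182 are cut from a common transcript best known from sensory organs, and miR-183 has been linked to osteoclast formation. On the day 3 arrays miR-96 read 9.73, 9.83, 9.70 and 9.63, miR-182 read 9.03, 9.16, 9.03 and 9.25, and miR-183 read 8.60, 8.77, 8.74 and 8.77. All 12 day 1 values were at the floor. By the 5th percentile limit miR-96 was at least 12-fold, miR-182 at least 7.88-fold and miR-183 at least 5.99-fold higher. The limma test (Benjamini-Hochberg adjusted p = 2.27e-15 for each) measured the distance from the floor, without spread at day 1, and not these folds. The 3 hairpins lie within 3760 bases on the minus strand of chromosome 6 (mm9 positions of the array). Their seeds, printed above, are not identical. All 3 were detected on all 4 day 5 arrays as well. Their mean levels at day 5 were 10.00 for miR-96, 9.05 for miR-182 and 8.74 for miR-183, beside 9.72, 9.11 and 8.72 at day 3.

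miR-489 is encoded within Calcr (GRCm38.p6 chr6:3721922-3721944, minus strand), the gene of the calcitonin receptor, a marker of osteoclasts. It was at the floor on the day 1 arrays and read 8.86, 8.74, 9.01 and 8.86 at day 3, at least 6.62-fold higher by the 5th percentile limit. Its day 5 level was above that of day 3 by 2.03 ± 0.08 (limma, Benjamini-Hochberg adjusted p = 5.7e-08), a difference between arrays of different slides.

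The miR-34 family is known as a target of p53 and a brake on the cell cycle, and miR-34a has been described as an inhibitor of osteoclast formation. miR-34c was at the floor at day 1 and read 7.99, 8.08, 8.18 and 7.91 at day 3, at least 3.73-fold higher by the 5th percentile limit. Its cluster neighbour miR-34b-5p read 8.18, 8.21, 8.26 and 7.58 at day 3, against day 1 values between 0 and 4.24 with no detection, and was at least 3.79-fold higher by the same limit. miR-34a, from another chromosome, rose from 12.22, 12.27, 12.70 and 12.09 to 12.95, 13.06, 13.00 and 13.06, by 0.70 ± 0.12. The 4 day 3 arrays of miR-34a lay above the 4 day 1 arrays, but without normalization its difference was -0.11, which lay 0.67 above the median of all miRNAs in that setting. Of the 5 tested members of the p53 and cell cycle arrest list, which also holds miR-192 and miR-194, 3 rose and 1 fell. The shares over all miRNAs were 27.2% higher and 25.1% lower. Without normalization 2 of the 5 were called higher and 2 lower.

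miR-193 and miR-193b share a seed. miR-193b lies with a miR-365 hairpin within 4340 bases on chromosome 16, and the other miR-365 gene is on chromosome 11, the chromosome of miR-193. The array has 1 value for the mature miR-365 of both genes. miR-365 rose from 8.80, 8.46, 8.90 and 8.55 to 12.13, 12.13, 12.06 and 12.31, by 3.48 ± 0.12, which is 11.2-fold (limma, Benjamini-Hochberg adjusted p = 1.16e-09). miR-193b read 5.81, 0.00, 3.52 and 5.45 at day 1, with no detection, and 7.61, 7.74, 7.69 and 8.50 at day 3, at least 3.36-fold higher by the 5th percentile limit. Its call was lost in 9 of 25 alternatives. miR-193 was detected on 1 of the 4 day 1 arrays, at levels of 3.87 to 6.19, and on all 4 day 3 arrays, at 8.82 to 9.39. All 3 were higher on every day 3 array than on any day 1 array, which for miR-365 the rule for the largest rises asked. The other strand of the miR-193 hairpin, miR-193*, was detected on no array of either day.

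The miR-200 family, which keeps epithelial cells from losing their character by repressing Zeb1 and Zeb2, was split. miR-200b read 8.28, 8.42, 8.36 and 8.28 at day 3 against undetected values of 4.49 to 5.49 at day 1, at least 4.60-fold higher by the 5th percentile limit. Its cluster neighbour miR-429, with the same seed, was detected on no day 1 array and on 1 day 3 array, with values of 0 to 3.64 at day 1 and 6.96 to 7.18 at day 3. miR-200c, of the same seed but from another chromosome, went the other way, from 7.42, 7.62, 7.69 and 7.61 to undetected values of 6.10, 5.90, 6.24 and 3.74, at least 2.67-fold lower by the dimmest detected signal and at least 1.31-fold by the 5th percentile. The call of miR-200c was lost in 15 of 25 alternatives.

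**Figure D2:**
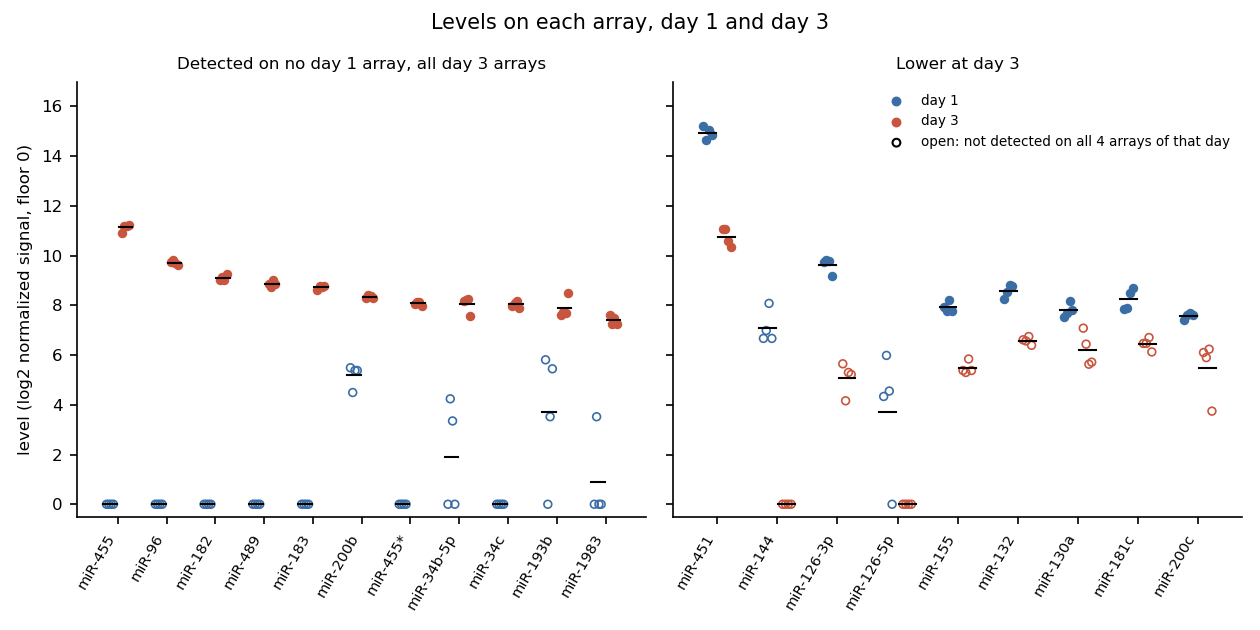
Levels in log2 normalized signal (0 is the floor) on each of the 4 arrays of day 1 (blue) and day 3 (red), with black bars at the means and open circles where the miRNA was not detected on all 4 arrays of that day. The left panel shows the 11 miRNAs that went from no to complete detection, with no overlap between the days for any of them, and the right panel 9 lower miRNAs, of which miR-126-5p overlaps at the floor.

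Among miRNAs measured on all 8 arrays, miR-378 rose most. It is encoded within Ppargc1b, the gene of PGC-1β, a co-activator of mitochondrial biogenesis that osteoclasts induce. miR-378 read 9.61, 9.70, 9.51 and 9.80 at day 1 and 14.45, 14.55, 14.45 and 14.55 at day 3, a rise of 4.84 ± 0.07 or 28.7-fold (limma, Benjamini-Hochberg adjusted p = 6.33e-13). The other strand, miR-378*, was detected on 1 day 1 array at levels of 5.00 to 6.16 and on all 4 day 3 arrays at 10.72 to 11.15, higher by 5.37 ± 0.24. The SD over the 4 arrays was 0.13 at day 1 and 0.06 at day 3 for miR-378, and 0.55 and 0.19 for miR-378*. No array overlapped between the days for either strand, which for miR-378 the rule for the largest rises asked. The day 5 minus day 1 difference of miR-378 was 5.17, and that of miR-365 was 3.57.

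Both strands of the miR-674 hairpin also rose. miR-674* went from 8.90, 8.86, 8.99 and 8.52 to 11.74, 11.74, 11.78 and 11.86, a rise of 2.97 ± 0.11, and miR-674 from 7.07, 7.68, 7.40 and 7.56 to 9.53, 9.55, 9.66 and 9.58, a rise of 2.15 ± 0.13. miR-185 rose from values of 9.29 to 9.42 to values of 11.83 to 11.91, by 2.51 ± 0.06. No array of these 3 miRNAs overlapped between the days, as the rule by which the largest rises were chosen asked. The other large rises among miRNAs detected on all 8 arrays were miR-5097 (2.55), miR-99a (2.12), miR-326 (2.07), miR-125b-5p (1.98), miR-100 (1.96), miR-23b (1.66) and let-7e (1.47), each a log2 difference. Of the 12 largest rises, 6 had a day 5 level above that of day 3 at an adjusted p under 0.01 in limma, namely miR-378, miR-99a, miR-326, miR-125b-5p, miR-100 and miR-23b. For miR-365, miR-674*, miR-5097, miR-185, miR-674 and let-7e the day 5 minus day 3 difference did not pass that test.

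The 5 tested members of the miR-99/100 and miR-125 list, miRNAs which bear on growth control through mTOR and on haematopoietic progenitors, all rose by more than 2-fold (median log2 difference 1.96, against 0.18 over all miRNAs). Of all miRNAs tested 15.6% did. miR-99a went from 8.74, 8.80, 8.86 and 8.88 to 10.77, 10.90, 11.02 and 11.06. miR-100 went from 7.18, 7.15, 7.26 and 6.94 to 9.05, 9.01, 8.99 and 9.32. miR-99b, detected on 2 day 1 arrays, went from 6.57, 6.51, 6.81 and 6.57 to 8.50, 8.55, 8.64 and 8.48, a rise of 1.93 ± 0.13. These 3 share a seed, as printed above, and rose by 2.12, 1.96 and 1.93. miR-99a and miR-100 differ at 1 of 22 bases and miR-99a and miR-99b at 4, so that a probe for one may also bind another, and how much signal they share was not tested. miR-125b-5p rose from values of 10.15 to 10.39 to values of 12.22 to 12.36, and miR-125a-5p by 1.28 ± 0.27. miR-351, which has the seed of miR-125 and is not on the list, was detected on 2 day 1 arrays and 1 day 3 array, and its difference of 1.94 ± 1.39 did not pass the test (limma, Benjamini-Hochberg adjusted p = 0.247).

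miR-99b, let-7e and miR-125a are cut from a cluster inside Spaca6 on chromosome 17. All 3 guide strands rose, by 1.93, 1.47 and 1.28, while the partner strand miR-125a-3p had a difference of -1.23 ± 0.56 that did not pass the test (limma, Benjamini-Hochberg adjusted p = 0.0763). In the cluster on chromosome 13, inside Aopep, miR-23b rose from 13.22, 13.37, 13.17 and 13.06 to 14.81, 14.74, 15.00 and 14.92, by 1.66 ± 0.09. Its neighbours miR-27b (1.07 ± 0.08), miR-24-1* (2.06 ± 0.19) and miR-24 (0.88 ± 0.07) rose too, with no overlap between the days. The paralogous cluster on chromosome 8 holds miR-23a (0.56 ± 0.05, with saturated spots on 3 day 1 arrays and 1 day 3 array), miR-24-2* (1.05 ± 0.10) and a miR-24 of the same mature sequence. Of the 7 tested members of the miR-23, miR-27 and miR-24 families 6 rose and none fell (median 1.05), beside 27.2% higher and 25.1% lower over all miRNAs. With the control features and without normalization 3 were called higher and none lower. Without normalization miR-23a had a difference of -0.25 and miR-24 of -0.06, which lay 0.52 and 0.71 above the median of that setting. The star strands miR-24-1* and miR-24-2* are specific to their cluster. miR-24-2* rose from values of 9.07 to 9.22 to values of 10.06 to 10.29, whereas miR-24-1* was detected on 2 of the 4 day 1 arrays, at levels of 5.63 to 6.65, and read 8.14 to 8.44 at day 3.

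let-7 is a large family that restrains growth genes in differentiated cells. Of its 9 members, all detected on all 8 arrays, 5 rose and none fell at an adjusted p under 0.01. The shares over all miRNAs were 27.2% higher and 25.1% lower, and the median of the family was 0.72. Those that rose were let-7e (1.47), miR-98 (1.21), let-7d (0.89), let-7f (0.87) and let-7a (0.72). The differences of the other 4 did not pass the test and lay between -0.12 and 0.28. Without normalization the differences of let-7a and let-7f were -0.20 and -0.02, which lay 0.58 and 0.75 above the median of that setting. In that setting none of the 9 was called higher and 2 were called lower. With the control features 1 was higher and 1 lower. The 75th percentiles and median scaling each called 3 higher and none lower. Members of let-7 differ by few bases, so that their probes may share signal.

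The miR-29 family restrains collagens and other matrix genes and has been described as needed for commitment of osteoclast precursors. miR-29b rose from 12.06, 12.03, 12.41 and 11.64 to 13.22, 13.11, 13.28 and 12.95, by 1.11 ± 0.15, and miR-29c by 0.47 ± 0.07. The miR-30 family had 3 of 5 members higher, miR-30b, miR-30d and miR-30a, by 0.56, 0.52 and 0.40, beside 27.2% higher over all miRNAs. None of the 5 was called higher with the 75th percentile of all mouse miRNAs, with median scaling or with the control features. None was called higher without normalization either, where 4 were called lower. The calls of miR-30a and miR-30d were each lost in 11 of 27 alternatives. Without normalization the differences of miR-29c, miR-30a, miR-30b and miR-30d were below 0 but lay 0.31, 0.29, 0.45 and 0.26 above the median of that setting. miR-221 rose by 0.36 ± 0.08, and without normalization it was -0.31, 0.47 above that median.

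**Figure D3:**
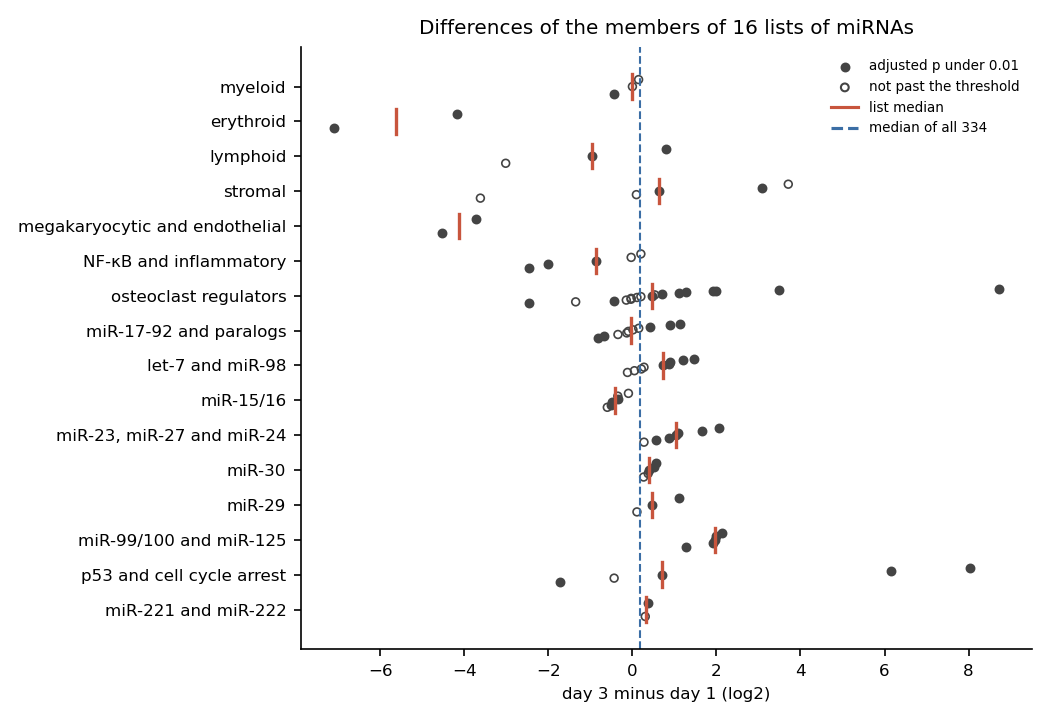
Day 3 minus day 1 differences (log2) of the tested members of 16 lists of miRNAs, with filled circles for an adjusted p under 0.01, red bars at the list medians and a blue dashed line at the median of all 334 miRNAs (0.18). The erythroid list has both members on the far left, and the miR-99/100 and miR-125 list all 5 members to the right of 1.

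The falls began with the markers of other marrow cells. miR-451 and miR-144 come from a common transcript of the red cell lineage, whose mature cells had been lysed before culture. miR-451 fell from 15.21, 14.63, 15.07 and 14.85 to 11.06, 11.06, 10.60 and 10.33, a difference of -4.18 ± 0.25 on the log2 scale or 18.1-fold (limma, Benjamini-Hochberg adjusted p = 1.34e-07). miR-144 was detected on 2 day 1 arrays, with levels of 6.67 to 8.08, and was at the floor on all day 3 arrays, at least 4.65-fold lower by the dimmest detected signal. Its mean day 1 level of 7.10 lay below the mean 5th percentile limit at day 3 (7.20), so that this limit gives no bound. Among the alternatives its difference smallest in size was -0.96 on the log2 scale. The summed linear signal of the 2 was 25488 to 38092 on the day 1 arrays, 1285 to 2139 at day 3 and 136 to 268 at day 5. The day 5 arrays lay lowest. The part of the slide in the day 3 difference was not tested.

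miR-126, encoded in Egfl7, marks endothelial cells, megakaryocytes and early progenitors. miR-126-3p was detected on all day 1 arrays at 9.73, 9.80, 9.76 and 9.18 and on no day 3 array, where its levels were 5.65, 4.16, 5.30 and 5.22, at least 18-fold lower by the dimmest detected signal and at least 5.34-fold by the 5th percentile. The other strand, miR-126-5p, was detected on 1 day 1 array and lay at the floor on all 4 day 3 arrays (with the replicate number as a block, limma's Benjamini-Hochberg adjusted p = 0.012). Among the alternatives the difference of miR-126-3p that was smallest in size was -1.95 on the log2 scale. The summed signal of both strands was 579 to 956 at day 1 and 18.9 to 51.1 at day 3. The part that a change of cell types had in other differences was not tested.

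The lymphoid and myeloid lists gave other values. miR-150, a miRNA of mature lymphocytes, was detected on all 4 day 1 arrays and on no day 3 array, but its day 3 values spread from 0 to 6.42 and the difference of -3.02 ± 1.37 did not pass the test (limma, Benjamini-Hochberg adjusted p = 0.077). Its summed signal with miR-181a and miR-181b was 1840 to 2758 at day 1 and 1933 to 2445 at day 3, which overlap. miR-223, the most characteristic miRNA of granulocytes and monocytes, was saturated on all 4 day 1 arrays and on no day 3 array. With quantile normalization it was 1.36-fold lower (16.30 to 16.34 against 15.87 to 15.90). That fold is not a lower bound, since it depends on the scaling. Of the 3 tested members of the myeloid list it was the only one that passed the test, and it lost that call in 6 of 27 alternatives, 4 of them scalings (differences of -0.19 to -0.74, limma, Benjamini-Hochberg adjusted p between 0.0164 and 0.325). The summed signal of that list was 98968 to 107910 at day 1 and 77279 to 88317 at day 3. Of the stromal list, 2 of 5 members were higher, miR-199a-5p by 0.63 ± 0.17 and miR-143. None of the 5 was lower at an adjusted p under 0.01, beside 27.2% higher and 25.1% lower over all miRNAs. Each of the other scalings called 1 of the 5 lower and at most 1 higher. miR-143 was detected on no array of either day, and miR-145 and miR-214 on no day 3 array. The calls of miR-143 and miR-199a-5p were lost in 16 of 23 and 13 of 26 alternatives, and each turned in 1 more. With the replicate block the adjusted p in limma was 0.0113 for miR-199a-5p, 0.0153 for miR-143 and, in the other direction, 0.00569 for miR-145. The summed signal of the stromal list was 437 to 666 at day 1 and 591 to 669 at day 3, and 2600 to 3630 at day 5.

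Among miRNAs of inflammatory signalling, several of which NF-κB induces in macrophages, 3 of 5 tested fell and none rose, beside 25.1% lower and 27.2% higher over all miRNAs. The list also holds miR-21, which was saturated on arrays of both days and is given no fold. miR-155, a miRNA of activated macrophages and lymphocytes, read 7.94, 7.79, 8.21 and 7.76 at day 1 and 5.38, 5.30, 5.84 and 5.38 at day 3, without detection. It was at least 4.55-fold lower by the dimmest detected signal and at least 1.65-fold by the 5th percentile. miR-132 read 8.26, 8.55, 8.80 and 8.77 at day 1 and undetected values of 6.61, 6.57, 6.74 and 6.39 at day 3. It was at least 4.01-fold and at least 2.63-fold lower by the same limits. Among the alternatives the differences smallest in size were -0.83 for miR-155 and -0.94 for miR-132 on the log2 scale. miR-146b fell by 0.86 ± 0.15, whereas miR-146a, which feeds back on TRAF6 and IRAK1, read 11.57, 11.64, 11.95 and 11.83 against 11.67, 11.78, 11.67 and 11.74, values that overlap (difference -0.03 ± 0.20).

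The osteoclast regulators, a list of miRNAs that have been linked to osteoclast formation in one direction or the other, had 8 of 17 tested members higher and 2 lower, beside 27.2% and 25.1% over all miRNAs. Those higher were miR-183, miR-365, miR-125b-5p, miR-99b, miR-125a-5p, miR-29b, miR-34a and miR-29c, and those lower miR-155 and miR-223. The median of the list was 0.47, against 0.18 over all miRNAs. With the control features 4 members were called higher and 2 lower, and without normalization 4 higher and 5 lower. The remaining scalings called 8 or 9 higher and 1 or 2 lower. The list was drawn up with earlier results of these arrays known. Some of its members, miR-365 and miR-99b among them, were picked for follow-up by the study from these arrays. The direction of the list is therefore not independent evidence.

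Within clusters of the cell cycle the members did not move as one. miR-17-92 drives proliferation, and of its 9 tested strands 4 rose and none fell, beside 27.2% higher and 25.1% lower over all miRNAs. Of the 10 tested members of the miR-17-92 and paralogs list 3 rose and 2 fell, and none was called higher with the 75th percentile of all mouse miRNAs, with the control features or without normalization. The rises were miR-19a from 9.94, 10.03, 10.60 and 9.86 to 11.25, 11.31, 11.38 and 11.02 (1.13 ± 0.16), miR-18a (0.89 ± 0.08), miR-17* (0.43 ± 0.11) and miR-19b (0.42 ± 0.06). With the replicate block limma's adjusted p of miR-17* was 0.0218. miR-17 itself had -0.13 ± 0.18 and did not pass the test. Without normalization the values of miR-18a, miR-19b and miR-17* were -0.20, -0.19 and -0.61, which lay 0.58, 0.59 and 0.17 above the median of that setting. The paralogous cluster of miR-106b, miR-93 and miR-25 had 2 falls, miR-25 from values of 12.95 to 13.00 to values of 12.09 to 12.27 (fell by 0.81) and miR-93 (fell by 0.67). The miR-15/16 family, which holds back cyclins and Bcl2, had 3 of 6 members lower and none higher (median -0.42), beside the same shares over all miRNAs. The other scalings called 2 to 6 of them lower and none higher. Those lower with quantile normalization are named next. These were miR-15a (fell by 0.50), miR-195 (fell by 0.48) and miR-16 (fell by 0.35).

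Several pairs with a shared seed, hairpin or transcript moved in opposite directions. miR-132 and miR-212-3p share a seed, differ at 5 of 22 bases and lie within 293 bases on chromosome 11. While miR-132 was lost from detection, miR-212-3p was higher by 0.93 ± 0.23 (limma, Benjamini-Hochberg adjusted p = 0.00528), from 7.20, 6.96, 7.47 and 7.89 to 8.52, 8.30, 8.55 and 7.87, with an overlap of 1 array. With the replicate number as a block its adjusted p in limma was 0.0144, and the call was lost in 15 of 26 alternatives in all. In the miR-181 family miR-181a fell by 0.96 ± 0.15, from 10.03, 9.98, 10.33 and 10.60 to 9.10, 9.36, 9.27 and 9.39. Its cluster neighbour miR-181b rose by 0.79 ± 0.13, from 9.70, 9.55, 9.70 and 10.06 to 10.43, 10.50, 10.50 and 10.72. miR-181c, from chromosome 8, went from detection on all 4 day 1 arrays to none and was at least 3.30-fold lower by the dimmest detected signal and at least 2.06-fold by the 5th percentile. Without normalization the difference of miR-181b was -0.28 and that of miR-181a -1.92, which is 0.50 above and 1.15 below the median of that setting.

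Strands of a hairpin also parted. miR-1897-5p fell from 13.59, 13.59, 13.11 and 13.59 to 11.38, 11.38, 11.31 and 11.47, a difference of -2.09 ± 0.21, whereas miR-1897-3p rose by 0.61 ± 0.13. In another hairpin miR-338-5p was higher by 0.74 ± 0.21 and miR-338-3p fell by 1.10 on the log2 scale. With the replicate block limma's adjusted p of miR-338-5p was 0.0133, and its call was lost in 19 of 27 alternatives in all. Of the 8 tested strands of the miR-188, miR-362, miR-500, miR-501 and miR-532 cluster on the X chromosome, 5 were higher, for example miR-500 by 0.45 ± 0.09, though 1 of the 5 was detected on no array of either day. The share over all miRNAs was 27.2% higher. In the same cluster miR-188-5p, encoded in Clcn5, fell from 13.41, 13.49, 13.06 and 13.41 to 11.19, 11.25, 11.25 and 11.31. Without normalization the differences of miR-1897-3p, miR-338-5p and miR-500 were -0.27, -0.27 and -0.59, which lay 0.51, 0.51 and 0.19 above the median of that setting.

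**Figure D4:**
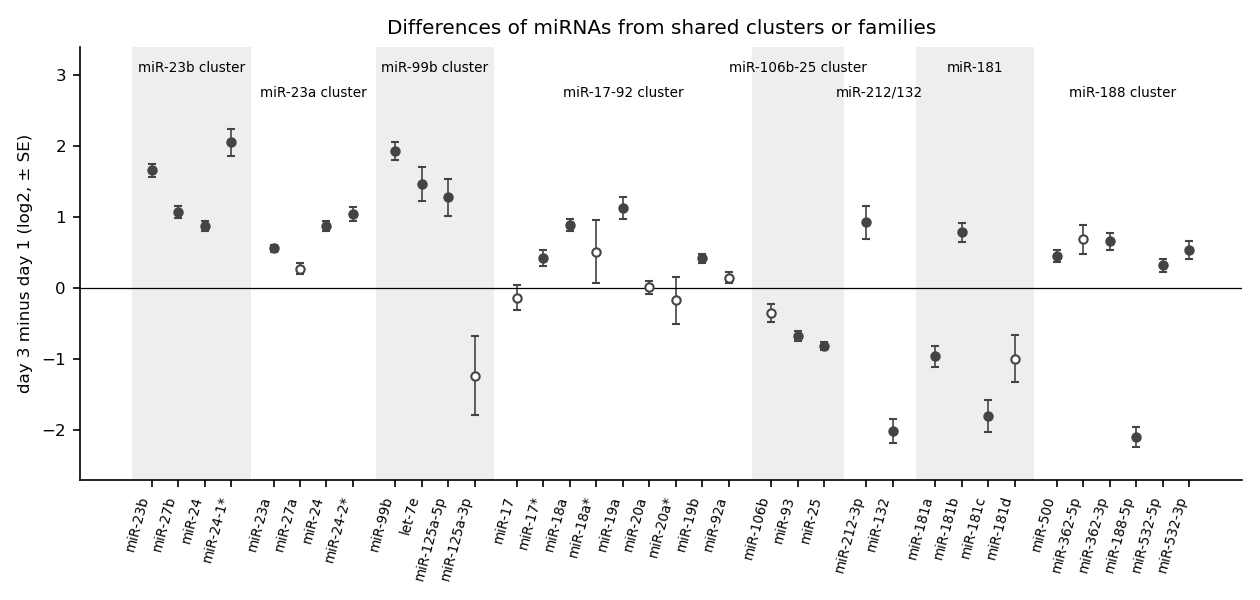
Day 3 minus day 1 differences (log2, error bars SE of the limma fit) of miRNAs from genomic clusters and the miR-181 family, with filled circles for an adjusted p under 0.01. The miR-23b cluster lies above 0, the 3 members of the miR-106b-25 cluster below, and miR-212-3p with miR-132, miR-181b with miR-181a, and miR-188-5p with its neighbours lie on opposite sides. The strands of miR-501 and the star strands of the miR-106b-25 cluster are not drawn.

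The other large falls are listed here by size. After miR-451 came miR-483, encoded in Igf2, from 12.27, 12.41, 11.86 and 12.27 to 9.49, 9.32, 9.36 and 9.07 (fell by 2.89), and miR-1306-3p, encoded in Dgcr8, from 12.47, 12.70, 11.91 and 12.36 to 9.55, 9.46, 9.46 and 9.51 (fell by 2.87). They were followed by miR-1894-3p (fell by 2.18), miR-671-5p (fell by 2.09, from values of 9.98 to 10.39 to values of 7.69 to 8.46), miR-188-5p, miR-1897-5p, miR-1896, miR-292-5p, miR-706, miR-135a-1* and miR-2137, the last with a fall of 1.62. All 12, miR-451 included, were lower on every day 3 array than on any day 1 array, as the rule by which they were chosen asked. The calls of miR-483 and miR-671-5p were lost in 8 and 7 of 26 alternatives, at differences of -2.83 to -3.66 and -2.09 to -3.02 (limma, Benjamini-Hochberg adjusted p up to 0.289 and 0.230). The day 5 minus day 1 values of the 12 ran from -2.03 for miR-135a-1* to -7.24 for miR-451. Among miRNAs lost from detection, miR-3474 went from values of 10.83 to 12.31 to undetected values of 4.16 to 6.26, at least 51.0-fold lower by the dimmest detected signal and at least 22.0-fold by the 5th percentile. By the same limits miR-1967 was at least 13.7-fold and 5.24-fold lower, and miR-3107 at least 6.53-fold and 4.69-fold. Among the alternatives the log2 differences smallest in size were -3.54 for miR-3474, -1.86 for miR-1967 and -1.46 for miR-3107. The call of miR-1967 was lost in 14 of 25 alternatives (limma, Benjamini-Hochberg adjusted p up to 0.0624). For miR-1966 the bounds were 8.53-fold and 1.71-fold, and for miR-711 they were 7.87-fold and 1.58-fold, so that the order of these losses depends on the limit.

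The guanine content of the stretch covered by a miRNA's longest probe had a median of 25% in the 52 higher miRNAs, 46.7% in the 65 lower and 29.4% over all 334. A run of GGGG in that stretch was present in 1 of the 52 (1.92%), 16 of the 65 (24.6%), 27 of the 334 (8.08%) and 33 of all 696 miRNAs of the array (4.74%). Of the 43 tested miRNAs with 50% guanine or more, 25 fell by more than 2-fold, 1 rose, and the median difference was -1.70. Of the 73 with less than 20% guanine, 3 fell, 12 rose and the median was 0.65. The day 5 minus day 1 medians of the same classes, within the slide of day 1, were -2.80 and 0.46. Among miRNAs detected on all 8 arrays the classes had medians of -1.23 (25 miRNAs) and 0.32 (34 miRNAs). The distance between the medians of both classes was -2.35 with quantile normalization and -2.36 without normalization. The part of probe binding in these differences was not tested.

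**Figure D5:**
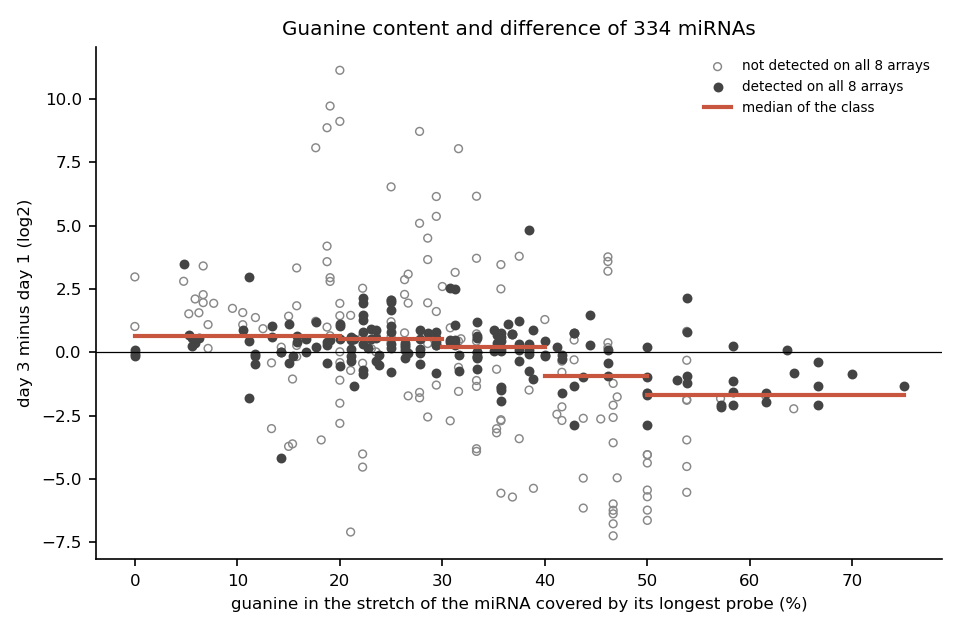
Guanine content of the stretch of each miRNA covered by its longest probe (%) against its day 3 minus day 1 difference (log2), for 173 miRNAs detected on all 8 arrays (filled) and the other tested miRNAs (open). Red lines are medians of classes of guanine content, which fall from 0.65 below 20% to -1.70 at 50% and above.

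Day 3 was also set against the midpoint of days 1 and 5, from which 86 of 334 miRNAs (25.7%) differed in limma at an adjusted p under 0.01, 47 above it (14.1%) and 39 below (11.7%). Since day 3 has its own slide, a peak or trough in time and a difference between slides cannot be told apart here. In 48 of the 86 the day 3 mean lay between the other days. A day 3 mean past both other days, with both differences at an adjusted p under 0.01, was found for 11 miRNAs. Above both days were miR-455, miR-18a, miR-17* and miR-130b, the last with a day 3 minus day 1 difference of 0.38 that was below 0 under 5 of the 6 other scalings. Below both days were miR-155, miR-132, miR-130a, miR-194, miR-30c-1*, miR-450a and miR-340-5p. Only the last of these 7 was detected on all arrays, with 9.76, 9.63, 9.90 and 9.70 at day 1, 9.22, 9.18, 9.10 and 8.74 at day 3 and a day 5 mean that was 0.81 ± 0.13 higher than at day 3. miR-155 and miR-132 were each detected on 3 of the 4 day 5 arrays, and their day 5 levels were higher than at day 3 by 1.40 and 1.08.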

How the data were processed

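Each array measured 200 ng of total RNA, labelled with Cy3, on a 1-colour Agilent miRNA array. The deposited scanner files, made by the authors with Feature Extraction (9.5.3.1), give linear intensity per spot and a total signal for each of 696 mouse miRNAs from 1937 probes in 13920 spots. The deposited table of processed log2 values was used only as an alternative. Total signals were quantile-normalized over the 334 miRNAs detected on at least 1 of 12 arrays, set to a floor of 1 (9.28% of values) and log2-transformed. limma (3.58.1, R 4.3.3) fitted a mean per day over 12 arrays. A Benjamini-Hochberg adjusted p under 0.01 was called changed, and errors after ± are SE. Exact permutation tests used scipy (1.17.1). The fit was tested on simulated data.

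The miRNAs and lists were chosen with earlier results of these data known. Named were the 12 largest rises and falls detected on all 8 arrays without overlap, up to 6 bounds in each direction, list members, members of seed groups and clusters, both strands of their hairpins and miRNAs near the 2-fold limit. The others, miR-34b-5p, miR-1983 and the turning miRNAs of the midpoint comparison among them, were chosen after their values were seen. Equal replicate numbers had deviations that correlated across the days at r = 0.645, 0.328, 0.280 and 0.142 over 173 miRNAs. Unequal numbers had r of -0.619 to 0.351, the highest for day 1 replicate 4 with day 3 replicate 3. Whether the numbers are true pairs is therefore unsure, and they were taken as pairs only in an alternative fit. Sequences from RefSeq matched 265 of the 334 miRNAs. The number of arrays limits the precision.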

Additional observations from a re-analysis of the deposited data

Results flagged for a closer look

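In 20 of 170 sets of 4 arrays that were examined, 1 array lay apart from the other 3 by Dixon's criterion, which chance alone meets in about 1 of 20 sets. In 13 of the 20 the other 3 arrays held an identical value, as quantile normalization produces, so that any difference meets the criterion. These were, with the value apart in log2, miR-1897-5p on day 1 replicate 3 (13.11), miR-25 on day 1 replicate 1 (12.95), miR-223 on day 3 replicate 1 (15.90), miR-16 on day 3 replicate 1 (14.92), miR-17 on day 3 replicate 1 (9.36), miR-19b on day 1 replicate 3 (13.28) and miR-17* on day 3 replicate 2 (10.36). The others were let-7f on day 3 replicate 1 (15.87), miR-24 on day 3 replicate 1 (15.62), miR-18a on day 1 replicate 3 (11.06), miR-27b on day 1 replicate 4 (12.95), miR-125b-5p on day 3 replicate 4 (12.36) and miR-185 on day 3 replicate 3 (11.83).

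Without such ties, miR-126-3p was lower on day 1 replicate 4 (9.18, against 9.73 to 9.80) and miR-135a-1* on day 3 replicate 4 (6.57, against 7.42 to 7.47). miR-2137 was higher on day 1 replicate 4 (11.52, against 11.11 to 11.15) and miR-193b on day 3 replicate 4 (8.50, against 7.61 to 7.74). miR-34b-5p was lower on day 3 replicate 4 (7.58, against 8.18 to 8.26) and miR-455 on day 3 replicate 1 (10.90, against 11.19 to 11.25). The control feature dmr_285 had a signal of 7598 on day 1 replicate 4, against 13977 to 15230 on the other day 1 arrays.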

How the results depend on the processing

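The slide could not be fitted as a block, since day 3 fills a slide of its own. The number of changed miRNAs was 80 among miRNAs detected on all 12 arrays, where fewer were tested, and 107 with the authors' deposited values. The number higher by more than 2-fold was 14 and 28 in these settings, 24 without normalization, 25 with normexp and 29 with scaling to control features, which was chosen after seeing the data. The number lower by more than 2-fold was 19, 35 with the deposited values and 34 with normexp. The midpoint comparison gave 54 and 49 in the first settings, 40 with the 75th percentile of all mouse miRNAs, 54 with median scaling and 54 without day 3 replicate 2. The causes were not tested. Leaving out single arrays gave 150 to 169 changed, 47 to 51 higher, 53 to 63 lower and 54 to 90 for the midpoint. The difference in detected miRNAs per array ranged from -29.2 to -43.5 with an exact permutation p of 0.0571, the smallest that 3 arrays against 4 allow.

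With the replicate block 176 miRNAs changed, 53 higher and 66 lower by more than 2-fold, and besides the 6 calls lost and 1 gained that are given with their values no call of a named miRNA changed. The methods' one-way analysis of variance gave 214 unadjusted and 201 adjusted. In at least 1 fit without an array 15 named miRNAs lost their call, with an adjusted p of at most 0.0418 in limma, namely miR-1967, miR-143, miR-338-5p, miR-17*, miR-30d, miR-126-5p, miR-30a, miR-199a-5p, miR-212-3p, miR-466b-3p, miR-200c, miR-193b, miR-221, miR-130a and miR-16. Of 106 named miRNAs, 29 lost their call with control features, 26 and 16 with the 75th percentiles of all and of detected miRNAs, 23 with median scaling, 15 without normalization, 10 with quantile normalization over all miRNAs and 17 without the filter on dim miRNAs. In the other settings that kept all arrays of days 1 and 3, at most 12 did.

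Without normalization 20 named miRNAs turned, namely miR-221 (-0.31), miR-130b (-0.81), miR-30a (-0.49), miR-19b (-0.19), miR-17* (-0.61), miR-500 (-0.59), miR-29c (-0.47), miR-30d (-0.51), miR-30b (-0.33), miR-23a (-0.25), miR-1897-3p (-0.27), miR-199a-5p (-0.14), miR-34a (-0.11), let-7a (-0.20), miR-338-5p (-0.27), miR-181b (-0.28), let-7f (-0.025), miR-24 (-0.061), miR-18a (-0.20) and miR-143 (-0.20). That setting moved the median of all miRNAs from 0.18 to -0.77, and relative to it 19 of the 20 kept their direction (0.17 to 0.75 above), the exception being miR-130b. With control features miR-130b (-0.44), miR-30a (-0.12), miR-17* (-0.24), miR-500 (-0.22), miR-29c (-0.10) and miR-30d (-0.15) turned. Relative to that setting's median of -0.41, 5 of these 6 kept their direction, again without miR-130b. miR-130b was -0.081 and -0.012 under the 75th percentiles of detected and of all miRNAs and -0.052 under median scaling. Over miRNAs detected on all 12 arrays miR-30a was -0.035 and miR-338-5p 0. Leaving out single arrays, miR-17 ranged from -0.22 to 0.037 and miR-146a from -0.095 to 0.044.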
